A study of Macaca fascicularis with 64 samples.

Results

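The transcription factors IRX1, IRX2 and POU3F4, listed as identity factors of glucagon cells, were followed in single pancreatic islet cells of cynomolgus monkeys (Macaca fascicularis). The 3 genes were chosen by symbol, and all 3 of them are among the 21041 macaque genes of the count tables. The 16 monkeys comprised 8 young and 8 old animals, with 4 females and 4 males at each age, and 4 libraries were made per monkey. All animals were healthy, and the islets of every group came from the tail part of the pancreas. Islets were picked by hand and dissociated, single cells were taken with a mouth pipette, and RNA was read by a modified STRT protocol, in which each captured molecule carries a unique molecular identifier (UMI) that is counted once. Tissue was collected over sequential days, so that the day and the monkey cannot be told apart.

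Of 6141 cells, 5908 passed the limits of more than 800 detected genes and more than 10000 UMIs. A cell was called an α-cell, β-cell, δ-cell or PP-cell by whichever of GCG, INS, SST and PPY had the highest count, with 0 ties. This gave 4503 α-cells, 1219 β-cells, 112 δ-cells and 74 PP-cells, with 178 to 362 α-cells in each monkey and a median of 65792 gene UMIs per cell. Monkeys, not cells, were compared, and a monkey entered for a type with at least 5 cells of it. All 16 monkeys entered for α-cells and β-cells, 11 for δ-cells (7 young and 4 old) and 6 for PP-cells (2 young, both male, and 4 old). Of the 8 α-cell markers, IRX2 and the typing gene GCG among them, 6 were highest in the α-cells. The hormones were present in every type: GCG reached 19155 CPM (UMIs of a gene per 1000000 gene UMIs) in the pooled β-cells against 75940 in the α-cells. The libraries drew on the same 96 cell barcodes, with 95 or 96 cells per library and at least 94 barcodes shared by any 2 libraries, so that a barcode alone names no cell.

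IRX1 and IRX2 are homeodomain factors of the Iroquois family, which pattern embryonic tissues and are known from rodent and human islets as genes of the glucagon lineage. POU3F4, also named BRN4, is a POU-domain factor that was described as an activator of the glucagon gene in rodents. In the RefSeq table of the assembly T2T-MFA8v1.1, which is not the assembly the reads were aligned to, IRX1 and IRX2 lie on chromosome 6 and POU3F4 on the X chromosome.

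IRX2 was the most widely detected of the 3 factors, with a UMI in 4369 of 4503 α-cells (97.0%, exact 95% binomial interval 96.5 to 97.5%). In the summed α-cells of a monkey it had 287 CPM in the lowest animal, 478 at the median and 734 in the highest. In β-cells the lowest, median and highest monkeys had 17.4, 36.1 and 82.1 CPM. In δ-cells they had 8.18, 33.9 and 55.5 CPM, and in PP-cells 24.0, 79.2 and 151 CPM. The lowest α-cell value was thus above the highest value of each other type. IRX2 was higher in α-cells than in β-cells by 3.69 ± 0.20 (log2 fold change ± SE; a factor of 12.9; edgeR adjusted p = 8.21e-21), than in δ-cells by 4.25 ± 0.26 (adjusted p = 1.72e-18) and than in PP-cells by 2.55 ± 0.31 (adjusted p = 5.81e-08). Among the other types, IRX2 was higher in PP-cells than in β-cells by 1.14 ± 0.28 (adjusted p = 0.00304) and than in δ-cells by 1.70 ± 0.32 (adjusted p = 0.00023). The β-cells and δ-cells, neighbours in this order, did not pass the test, with a difference of 0.56 (95% interval 0.07 to 1.05; adjusted p = 0.101). The PP-cell values rest on few cells, most of them with a second hormone close to PPY. PPY was at least 4 times the second hormone in 8 of 74 PP-cells, whereas GCG was so in 4204 of 4503 α-cells. The pooled PP-cells held 34919 CPM of GCG, against 19155 CPM in β-cells. No comparison could be made with PP-cells of a dominant hormone, and the part of other cells' RNA in the PP-cell level was not tested. With at least 20 cells per monkey, PP-cells came from old female 2 alone (33 cells), and the difference from β-cells was 1.08, for which no test is given.

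IRX1 was detected in fewer cells, with a UMI in 2094 α-cells (46.5%, interval 45.0 to 48.0%), and the same order of types was seen. Its α-cell level was 12.1 CPM in the lowest monkey, 22.0 at the median and 69.1 in the highest. In β-cells it was 0, 3.93 and 14.5 CPM, in δ-cells 0, 2.83 and 8.18 CPM, and in PP-cells 0, 7.27 and 27.6 CPM. The δ-cell values all lay below the lowest α-cell value, whereas those of β-cells and PP-cells overlapped it. IRX1 was higher in α-cells than in β-cells by 2.64 ± 0.37 (a factor of 6.21; adjusted p = 1.31e-07) and than in δ-cells by 3.64 ± 0.55 (adjusted p = 1.55e-06). Against PP-cells the difference of 1.77 (95% interval 0.54 to 3.0) did not pass the test (adjusted p = 0.0684). It passed with DESeq2 (1.5; adjusted p = 0.0221) and, in edgeR, without young male 4, at 2.27 with adjusted p = 0.0477; this animal had the highest IRX1 level in PP-cells. The PP-cells, β-cells and δ-cells were not separated from one another for IRX1, with adjusted p = 0.338 for PP-cells against β-cells, 0.0948 for PP-cells against δ-cells and 0.209 for β-cells against δ-cells.

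POU3F4 was nearly absent. It had 196 UMIs in 27 of 4503 α-cells (0.600%, interval 0.396 to 0.871%) and none in any other type. A count of 0 allows a share of cells with a UMI of up to 0.246% of the 1219 β-cells, 2.68% of the 112 δ-cells and 4.05% of the 74 PP-cells, which does not limit the share of cells that express the gene below detection. Over the summed cells, the level in α-cells (0.608 CPM) was 20.7-fold a limit of 3 UMIs over all β-cells. That limit treats UMIs as independent, whereas an α-cell with POU3F4 held a median of 4 UMIs and up to 35. The ratio is therefore not a lower bound on the difference. By cells, the α-cell share of 0.600% stood against a β-cell limit of 0.246%. Without young female 3, who gave 83 of the 196 UMIs, the α-cell level was 0.383 CPM and the ratio to the limit 12.8-fold. Without young female 4 they were 0.455 CPM and 14.3-fold. The limits were 0.549 CPM in δ-cells and 0.780 CPM in PP-cells, so that the absence of POU3F4 from these types could not be shown at this depth. No test between types is given for POU3F4, because it passed the filter on low counts only through the α-cells. All intervals and limits cover counting error only.

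For scale, 18.1% of the 14648 genes tested were called higher in α-cells than in β-cells, 19.0% higher than in δ-cells and 4.84% higher than in PP-cells. IRX1 and IRX2 were both called against β-cells and δ-cells, and IRX2 was called against PP-cells. Genes called lower in α-cells made up 7.54% against β-cells, 3.82% against δ-cells and 1.48% against PP-cells. Genes called higher in PP-cells made up 6.08% against β-cells and 5.55% against δ-cells, and 13.1% were called higher in β-cells than in δ-cells. The median log2 fold change over all genes tested was 0.20 for α-cells against β-cells, 0.57 against δ-cells and 0.49 against PP-cells, and with DESeq2 it was 0.15, 0.10 and 0.03. The share of calls that were higher in the first type differed with DESeq2, which changes the scaling and the model, and with total counts in place of TMM, which changes the scaling alone. For α-cells against δ-cells it was 83.2%, 62.1% with DESeq2 and 74.1% with total counts, and for α-cells against PP-cells 76.6%, 56.6% and 77.5%. For PP-cells it was 38.8%, 54.5% and 36.2% against β-cells and 62.6%, 55.3% and 46.5% against δ-cells, and for β-cells against δ-cells 72.5%, 50.3% and 62.0%. The enrichment of IRX2 in α-cells was already known from these cells.

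**Figure D1:**
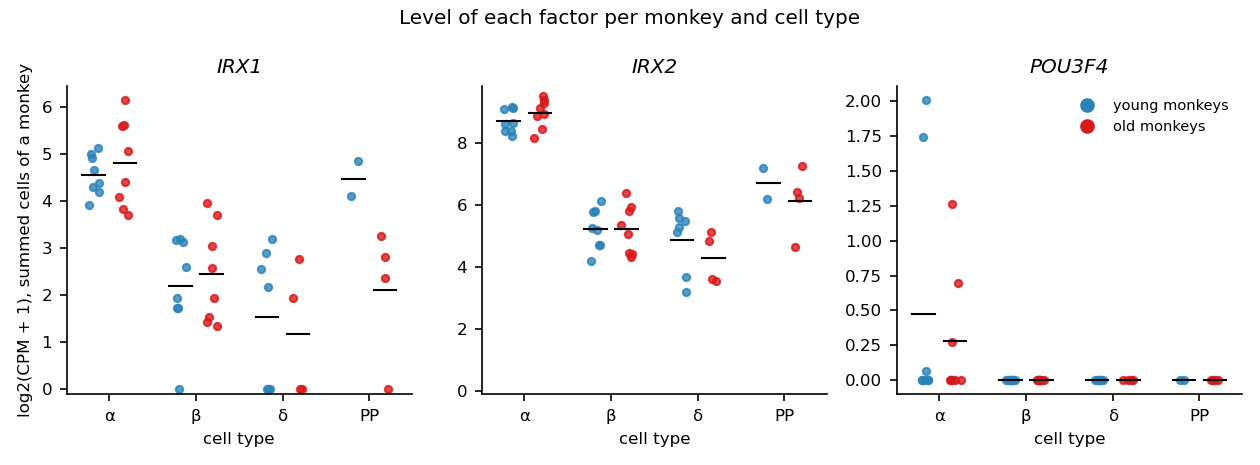
Level of IRX1, IRX2 and POU3F4 in the summed cells of each monkey, as log2(CPM + 1), by cell type; each point is 1 monkey with at least 5 cells of the type, blue for young and red for old, and black lines are means. IRX2 in α-cells lies above every other type in all 16 monkeys, young and old points overlap in every α-cell panel, and POU3F4 is above 0 in 6 monkeys.

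Depth differed between types, with a median of 64894 gene UMIs in α-cells, 74425 in β-cells, 43776 in δ-cells and 45772.5 in PP-cells, so the share of cells with a UMI was compared after thinning every cell to 10000 UMIs. This kept 4464 α-cells and 1213 β-cells. The thinned share of cells with IRX2 averaged 85.6 ± 6.54% (SD, n = 16 monkeys) in α-cells and 32.6 ± 14.3% in β-cells, and it was higher in α-cells in 16 of 16 monkeys (exact sign-flip test over monkeys, two-sided, p = 3.05e-05, the smallest possible; adjusted p = 0.000168 over 11 comparisons of shares). In the 11 monkeys with δ-cells the shares were 84.0% and 19.0%, and α-cells were higher in 11 of 11 (exact test, adjusted p = 0.00269). In the 6 monkeys with PP-cells they were 88.4% and 62.0%, higher in α-cells in 6 of 6, where the smallest p of the exact test is 0.03125 (adjusted p = 0.0688). For IRX1 the thinned shares averaged 16.8 ± 6.60% in α-cells and 5.35 ± 5.88% in β-cells, again higher in α-cells in 16 of 16 monkeys (exact test, adjusted p = 0.000168). Against δ-cells they were 16.2% and 2.47%, higher in 11 of 11 (exact test, adjusted p = 0.00269), and against PP-cells 18.1% and 8.14%, higher in 5 of 6, which did not pass (exact test, adjusted p = 0.286). Without thinning, the IRX1 share was 46.4% and 28.2% and that of IRX2 was 97.0% and 81.2%, so at full depth most β-cells held some IRX2.

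The counts per cell differed more than these shares. In α-cells 73.0% of cells held 10 or more IRX2 UMIs, against 5.58% of β-cells, 0.893% of δ-cells and 9.46% of PP-cells. For IRX1, 53.5% of α-cells held 0 UMIs, 20.5% held 1 and 4.77% held 10 or more. The highest-count 10% of α-cells carried 66.7% of the IRX1 UMIs and 36.4% of the IRX2 UMIs. In old female 1, the monkey with the highest IRX1 level, the 2 highest cells held 223 and 115 of 973 IRX1 UMIs, and without these 2 cells its level fell from 69.1 to 46.6 CPM.

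**Figure D2:**
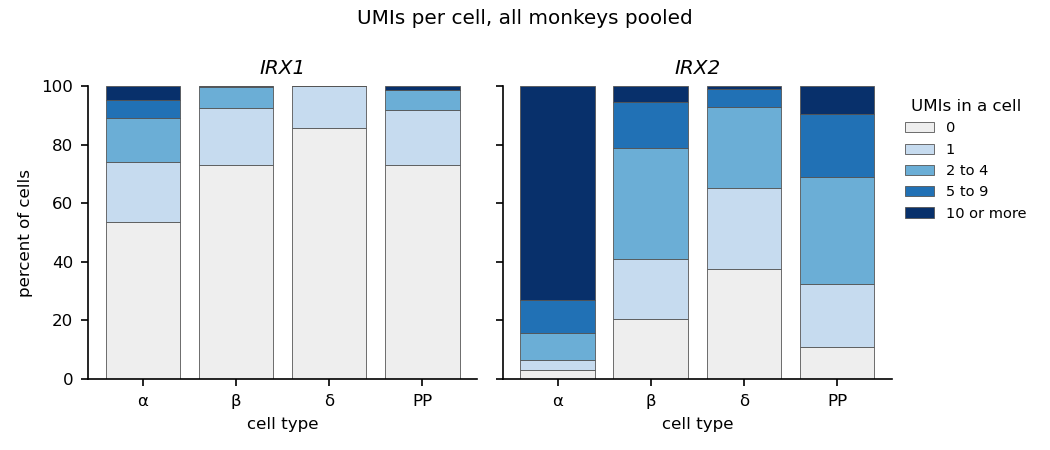
Percent of cells with 0, 1, 2 to 4, 5 to 9 and 10 or more UMIs of IRX1 (left) and IRX2 (right) in each cell type, all monkeys pooled. IRX2 reaches 10 or more UMIs in 73.0% of α-cells and 5.58% of β-cells, and IRX1 stays at 0 UMIs in 53.5% of α-cells.

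The 134 α-cells without an IRX2 UMI were shallow, with a median of 23269 gene UMIs against 66029 in the other α-cells. They came from all 16 monkeys, and young male 3 gave 24 of them. Their GCG level was 107612 CPM against 75504 CPM, GCG was at least 4 times the second hormone in 88.8% against 93.5% of cells, and markers of non-endocrine cells summed to over 1000 CPM in 20.9% against 3.71%. The part of depth and of non-endocrine RNA in these cells was not tested.

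The Iroquois transcripts outside α-cells were examined as a percentage of the α-cell level of the same monkey. In β-cells IRX2 stood at a median of 7.70% (range 4.42 to 13.4%, n = 16) and IRX1 at 16.4% (0 to 33.5%). The percentage was higher for IRX1 in 15 of 16 monkeys, by 8.93 ± 7.32 percentage points (mean ± SD; exact sign-flip test, two-sided, p = 0.000427; adjusted p = 0.00128 over 3 types). In δ-cells IRX1 was the higher in 6 of 11 monkeys (adjusted p = 0.479), and in PP-cells in 3 of 6 (exact test, adjusted p = 0.375). This comparison was added after the values were seen. For other α-cell genes the β-cell median was 27.7% for GCG, which defined the α-cells, and 45.7% for TTR, a carrier of thyroid hormone and retinol. It was 11.1% for CRYBA2, a crystallin, 9.18% for GC, the vitamin D binding protein, and 6.86% for FAP, a serine protease. Over the 14 α-cell products listed it ran from 6.86% for FAP to 89.6% for TMEM176B, with 68.8% for TMEM176A and 48.2% for DPP4.

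The Iroquois counts were also set against GCG in each type. IRX2 UMIs per 1000 GCG UMIs had a median of 6.22 in α-cells (range 3.41 to 11.4), 1.46 in β-cells (0.840 to 5.89), 1.22 in δ-cells (0.455 to 1.64) and 2.44 in PP-cells (0.720 to 7.08). The α-cell and δ-cell ranges did not overlap, and those of β-cells and PP-cells overlapped the α-cell range. For IRX1 the medians were 0.303 in α-cells, 0.178 in β-cells, 0.0993 in δ-cells and 0.172 in PP-cells. These ratios are a description only, because GCG counts levelled off with depth: α-cells of 10000 to 20000 gene UMIs had a median of 2573 GCG UMIs at a median depth of 15390.5, and those of 80000 to 160000 had 6614 at a median depth of 100500. Over the same range of depth IRX2 went from 657 to 481 CPM and IRX1 from 51.0 to 27.1 CPM, whereas GCG went from 170195 to 61130 CPM. The fall of IRX2 and IRX1 lay mostly at the shallow end. Cells of 20000 to 40000 gene UMIs had 471 and 31.4 CPM of them, and those of 40000 to 80000 had 461 and 26.7 CPM. GCG had 133974 and 91918 CPM in these cells.

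**Figure D3:**
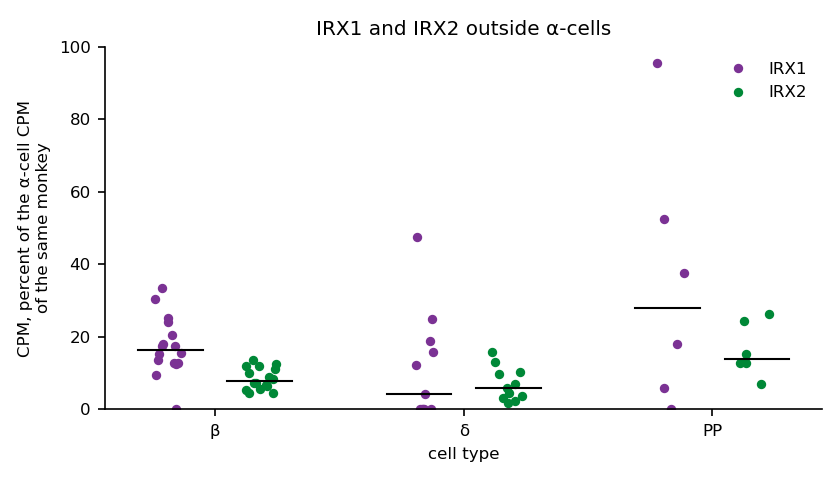
IRX1 and IRX2 CPM in β-cells, δ-cells and PP-cells as a percentage of the α-cell CPM of the same monkey; each point is 1 monkey with at least 5 cells of the type and black lines are medians. In β-cells IRX1 (median 16.4%) lies above IRX2 (median 7.70%), and the spread is widest for IRX1 in PP-cells.

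Within β-cells, IRX1 and IRX2 were lower where INS was more dominant over the second hormone. In 11 monkeys with at least 5 cells on both sides, β-cells whose INS count was at least 4 times the second hormone had 22.2 ± 9.37 CPM of IRX2 (mean ± SD over monkeys), and the other β-cells had 41.5 ± 25.5 CPM, with the first lower in 11 of 11 monkeys (exact sign-flip test, two-sided, p = 0.000977, the smallest possible; adjusted p = 0.00195). For IRX1 the levels were 2.41 ± 2.44 and 4.94 ± 3.77 CPM, lower in 9 of 11 (exact test, adjusted p = 0.0127). The split was added after the data were seen, and it moved with depth (medians of 56476.5 and 83881 gene UMIs) and with GCG (16090 and 19875 CPM). It uses the hormone counts that also typed the cells, so that cells below the limit hold relatively more of a second hormone by definition. The INS level itself was not compared, and no relation to insulin is drawn from these tests. The 68 β-cells with 10 or more IRX2 UMIs had a median of 154976 gene UMIs against 72772 in the other β-cells, and INS was at least 4 times the second hormone in 1.47% of them against 33.3%. They held IRX1 in 72.1% against 24.3%. Old female 1 gave 23 of them, old male 3 gave 19 and young male 1 gave 13. Whether depth or wells with more than 1 cell had a part in this was not tested.

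The age groups were compared next, which is the main contrast of the study. In young α-cells IRX2 had 296, 393 and 573 CPM in the lowest, median and highest monkey, and in old α-cells 287, 525 and 734 CPM. For IRX1 the values were 14.0, 21.9 and 33.9 CPM in young and 12.1, 26.2 and 69.1 CPM in old monkeys. The groups overlapped for both genes, and the old range contained the young range. Neither gene passed the test in α-cells: IRX2 differed by 0.28 (log2, old against young, 95% interval -0.07 to 0.63; adjusted p = 0.801) and IRX1 by 0.43 (interval -0.22 to 1.08; adjusted p = 0.837). Of the 13486 genes tested in α-cells, 0 were called by edgeR (0%), 920 had an unadjusted p under 0.05, and DESeq2 called 26. In β-cells the differences were 0.02 (interval -0.66 to 0.69) for IRX2 and 0.27 (interval -1.01 to 1.56) for IRX1, where 5 of 11101 genes were called (0.0450%), neither factor among them. The sign of the IRX2 difference in β-cells changed with the setting. In δ-cells (0% of 7405 genes called; 289 at an unadjusted p under 0.05, 3 by DESeq2) and PP-cells (0% of 6568 called; 394 unadjusted, 2 by DESeq2) only IRX2 passed the filter on low counts, and it differed by -0.79 (interval -3.02 to 1.44) and -0.22 (interval -2.19 to 1.75). The age differences in α-cells and β-cells were not distinguishable either: 0% of 15441 genes were called for the difference of the age effects (920 unadjusted, 15 by DESeq2), which was 0.24 for IRX2 (adjusted p = 0.972) and 0.23 for IRX1 (adjusted p = 0.980).

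The shares of cells gave the same picture. After thinning, 83.8 ± 7.0% of young and 87.3 ± 5.98% of old α-cells held IRX2 (mean ± SD, n = 8 monkeys each; exact permutation test, two-sided, p = 0.295, adjusted p = 0.433), and 15.3 ± 3.74% and 18.4 ± 8.58% held IRX1 (exact permutation test, p = 0.354, adjusted p = 0.433). In β-cells the shares were 32.8 ± 13.9% and 32.4 ± 15.6% for IRX2 and 3.79 ± 3.32% and 6.91 ± 7.58% for IRX1, with adjusted p = 0.963 and 0.433 by exact permutation. The share of α-cells with 10 or more IRX1 UMIs ranged from 0.797% to 13.9% in old monkeys and from 2.76% to 5.36% in young ones.

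Sex was compared because the groups hold both sexes. In young females the 4 α-cell values of IRX2 were 296, 336, 389 and 398 CPM, and in young males 333, 543, 557 and 573 CPM. In old females they were 467, 489, 560 and 663 CPM, and in old males 287, 352, 621 and 734 CPM. All old females thus lay above all young females, whereas the males of both ages overlapped. The interaction of sex and age did not pass the test for IRX2 (0.62, interval -0.03 to 1.27; p = 0.0610, adjusted p = 0.877 in edgeR) nor for IRX1 (0.76; adjusted p = 0.921), with 1 of 14146 genes called (0.00707%). Between females and males, IRX2 differed by -0.13 (interval -0.49 to 0.22) and IRX1 by -0.15 (interval -0.80 to 0.51) in α-cells, where 0% of 13486 genes were called (783 unadjusted, 31 by DESeq2). In β-cells they differed by 0.04 and -0.40, with 0% of 11101 genes called (444 unadjusted, 16 by DESeq2), and the interactions were 0.26 and 0.49, with 0% of 11693 called (495 unadjusted, 2 by DESeq2).

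POU3F4 was unevenly spread over the animals. Young female 3 had 11 cells with a UMI, young female 4 had 7, old male 3 had 5, old male 4 had 2, and young female 2 and old female 4 had 1 each, while the other 10 monkeys had none. As levels these were 3.02, 2.35, 1.40, 0.618, 0.0458 and 0.208 CPM in the same order. The cells came from 11 libraries. A cell held a median of 4 UMIs and at most 35, and 9 cells held 1 UMI and 9 held 10 or more. Young monkeys gave 19 of the cells and old monkeys 8, which did not differ over monkeys in the share of α-cells with a UMI (exact permutation test, two-sided, p = 0.485 without thinning and p = 0.733 at 10000 UMIs). The fit of the interaction of sex and age gave p = 0.00413 for POU3F4 but an adjusted p of 0.872 in edgeR, and the 4 young males are all at 0, so that its fold change is not given. All 27 cells held IRX2 and 14 held IRX1. In them IRX1 stood at 35.2 CPM and IRX2 at 382 CPM, against 27.5 and 474 CPM in the other α-cells, and their median depth was 60369 gene UMIs.

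IRX1 and IRX2 were then compared with each other over monkeys. Monkeys with a high α-cell level of IRX1 also had a high level of IRX2: over the 16 monkeys Pearson's r of log2(CPM + 1) was 0.87 (permutation p = 1e-05, the smallest possible) and Spearman's rho was 0.87 (permutation p = 2e-05), with adjusted p = 5e-05 and 0.0001 over 5 relations. The correlation was 0.93 within the 8 young and 0.89 within the 8 old monkeys, and 0.87 without the 2 monkeys farthest from the median of IRX1. Both values come from the same libraries. Among 9666 genes with a mean of at least 5 CPM in α-cells, IRX2 ranked 14th by its correlation with IRX1, and the median r of all these genes was 0.18. The levels in α-cells and β-cells of the same monkey also rose together, with r = 0.79 (adjusted p = 0.0009) and rho = 0.81 for IRX1 and r = 0.67 (adjusted p = 0.00973) and rho = 0.74 for IRX2. For IRX2 this relation was 0.44 within the young and 0.88 within the old monkeys, and for IRX1 0.62 and 0.94. Without the 2 monkeys farthest from the median it was 0.69 and 0.68. The median depth of a monkey's α-cells had r = -0.12 with IRX1 (adjusted p = 0.817) and -0.02 with IRX2 (adjusted p = 0.939) over all monkeys. For IRX1 it was -0.58 within the young and 0.22 within the old monkeys, and for IRX2 -0.31 and 0.40.

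**Figure D4:**
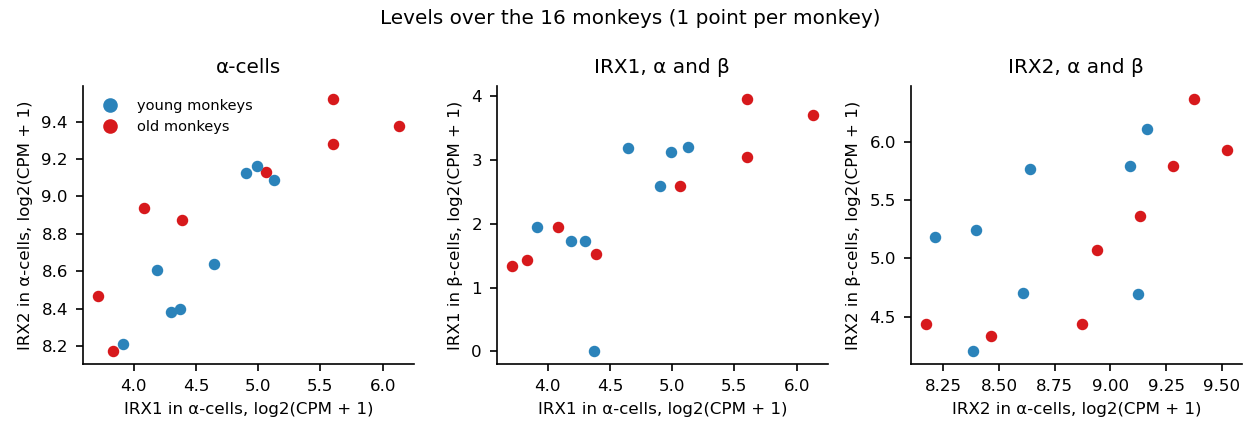
Levels over the 16 monkeys, as log2(CPM + 1) of summed cells: IRX2 against IRX1 in α-cells (left), IRX1 in β-cells against α-cells (middle) and IRX2 in β-cells against α-cells (right); each point is 1 monkey, blue for young and red for old. IRX1 and IRX2 rise together in α-cells (r = 0.87), with old and young monkeys intermixed.

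Levels also varied between the libraries of 1 monkey. Over the 64 libraries IRX2 ranged from 240 to 818 CPM in α-cells, with a median SD of 0.17 on the log2 scale within a monkey against an SD of 0.42 between the monkeys' means. For IRX1 the range was 6.85 to 105 CPM and the SDs were 0.46 and 0.77. The largest SD within a monkey was 0.44 for IRX2 and 0.95 for IRX1, in each case above the SD between monkeys.

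Within a monkey, the association of IRX1 and IRX2 from cell to cell was weak. In α-cells thinned to 10000 UMIs, 15.2% of cells on average held both, and 14.7% would do so if the genes were independent; the first was above the second in 14 of 16 monkeys. Spearman's rho over the α-cells of a monkey had a median of 0.06 (range -0.04 to 0.16). Cells with an IRX1 UMI held 5.33 ± 1.63 IRX2 UMIs and those without held 4.70 ± 1.44 (mean ± SD over 16 monkeys). In such sparse counts these values are given as a description.

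Both factors were compared between α-cells with much and with little glucagon mRNA. α-cells of each monkey were ordered by GCG CPM, and the upper and lower terciles were summed, with the 4 hormones left out of the totals. IRX2 had 542 ± 205 CPM in the upper tercile and 513 ± 156 CPM in the lower tercile (mean ± SD, n = 16), and IRX1 had 30.8 ± 12.6 and 28.8 ± 18.1 CPM. On the log2(CPM/10 + 1) scale the differences were 0.04 for IRX2, which was higher in the upper tercile in 7 of 16 monkeys (exact sign-flip test, two-sided, adjusted p = 0.626), and 0.13 for IRX1, higher in 11 of 16 (adjusted p = 0.563). POU3F4 was higher in 5 monkeys and lower in 0 (0.11; adjusted p = 0.188), and with 5 monkeys that differ the smallest p is 0.0625. The terciles also differed in depth, with median gene UMIs of 41180 in the upper and 101732 in the lower tercile. With terciles taken within quintiles of depth, which was added after the data were seen, the differences were -0.07 for IRX2 and 0.00 for IRX1. With cells thinned to 10000 UMIs they were 0.08 for IRX2 and 0.34 for IRX1, the latter higher in 10 of 16 monkeys (exact test, p = 0.0316, adjusted p = 0.0948).

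The other members of the factor families that are in the count tables were rare. IRX3, IRX5 and IRX6 had 21, 3 and 6 UMIs in all cells and IRX4 had 0, and none of them passed the filter. POU3F1 had 56 UMIs in 13 δ-cells (11.6%) and 32 in α-cells. Over the pooled cells this was 10.2 CPM in δ-cells and 0.0992 CPM in α-cells, with 0.0686 CPM in β-cells and 0 in PP-cells. No test between types is given for POU3F1 either, because only its δ-cell level was well above the floor. POU3F2 and POU3F3 are not among the genes of the count tables by these symbols, so their levels are not known here.

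Among 13 α-cell and shared endocrine factors, 12 were tested, and 8 were higher in α-cells than in β-cells, none was lower and 4 did not pass. Their median log2 fold change was 0.74, against 0.20 for all genes. Against δ-cells 4 were higher and 1 was lower, with a median of 0.51 against 0.57 for all genes, and against PP-cells the median was 0.33 against 0.49. Of all genes tested, 18.1% were called higher and 7.54% lower in α-cells than in β-cells. Against δ-cells these shares were 19.0% and 3.82%, and against PP-cells 4.84% and 1.48%. The 8 included FEV, an ETS factor of serotonergic neurons and endocrine progenitors (3.93 ± 0.30; adjusted p = 2.21e-15), the LIM factor ISL1 (1.11 ± 0.11; adjusted p = 2.12e-11) and PAX6 (0.51 ± 0.11; adjusted p = 0.00045). Against PP-cells 1 of these factors was higher in α-cells, RFX6 (1.53 ± 0.24; adjusted p = 1.34e-05), and 1 was lower, NKX2-2 (-1.02 ± 0.31; adjusted p = 0.0334). FEV was at 0.32 against PP-cells (adjusted p = 0.674). The difference between IRX2 and these factors was not itself tested.

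Of 10 β-cell, δ-cell and PP-cell factors, 8 were tested, and 7 were lower in α-cells than in β-cells (7.54% of all genes tested were), with a median of -3.20. They included PDX1 (-5.29 ± 0.60) and MAFA (-4.65 ± 0.34), which activate the insulin gene. Of 14 α-cell products 13 were higher in α-cells than in β-cells and 9 higher than in PP-cells, with medians of 2.18 and 1.03. Over all genes tested, 18.1% and 4.84% were called higher. GCG is among the 14 and is counted in both, and its calls were set in advance, because its count defined the α-cells. Between old and young α-cells, 0 of the 12 tested endocrine factors, 0 of 6 tested factors of the other types and 0 of 14 products passed, with medians of 0.04, -0.35 and 0.02, and 4 genes had an unadjusted p under 0.05: CRYBA2 (0.75), FAP (0.76), NEUROD1 (0.31) and MEIS2 (-0.37). These lists were chosen with the α-cell pattern of several of their genes known from these cells.

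**Figure D5:**
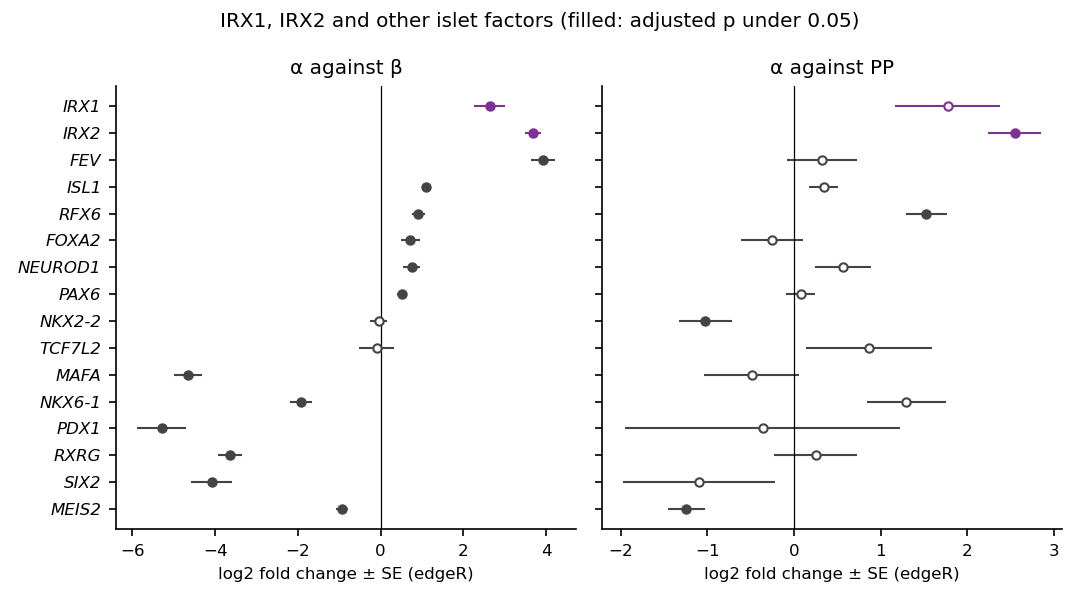
Log2 fold change with SE of IRX1, IRX2 (purple) and 14 other islet factors (grey) for α-cells against β-cells (left) and against PP-cells (right), from edgeR over monkeys; filled points have an adjusted p under 0.05. IRX2 is filled in both panels, and FEV is filled against β-cells and open against PP-cells.

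The genes whose levels followed each factor most closely were named by Pearson's r of log2 CPM over the 49 monkey and type profiles. For IRX2 these were TSPAN12, a tetraspanin (0.91), SEZ6L (0.90), FAP (0.89), CYSTM1 (0.88) and COTL1, an actin-binding protein (0.88). For IRX1 they were DOCK8, a guanine nucleotide exchange factor (0.86), PLCE1, a phospholipase (0.79), IGSF21 (0.78), the kinase RPS6KA1 (0.76) and IRX2 itself (0.76). For POU3F4 the closest named genes were CSF3R (0.83) and S100A9 (0.67), genes of myeloid cells, but POU3F4 was above 0 in 6 profiles only. The profiles share libraries and span the 4 types, and correlations within a type were not computed.

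Markers of non-endocrine cells were present at levels that differed between types. The immune list (6 of 6 markers in the tables) had a median of 25.8 CPM over monkeys in α-cells (range 1.86 to 1815), 29.3 in β-cells (1.21 to 404), 81.6 in δ-cells (0 to 288) and 66.1 in PP-cells (5.69 to 220), with CD3E at 0 in every type. The acinar list (4 of 8) had a median of 2.95 CPM in α-cells (range 0.721 to 2015) and 392 CPM in δ-cells (68.4 to 1114). Over the pooled cells the higher δ-cell level was that of the carboxypeptidase CPB1 alone, with 543 CPM against 39.6 CPM in α-cells. The other acinar markers CPA1, PNLIP and REG1A were lower in δ-cells (5.49, 9.51 and 0.183 CPM) than in α-cells (40.1, 59.8 and 7.40 CPM). Without cells over 1000 CPM of non-endocrine markers, IRX2 was higher in α-cells than in δ-cells by 4.05 and IRX1 by 4.10.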

How the data were processed

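Single islet cells of 16 cynomolgus monkeys were sequenced in 64 libraries. The deposited values are UMI counts per gene and cell, not normalized; per the labels and the study's methods, the authors assigned reads to cell barcodes, aligned them with TopHat2 2.0.12 to Macaca_fascicularis_5.0, counted them per gene and counted each UMI once (CASAVA 1.8 is also named in the submitters' processing notes). The study's filter on mapping rate was not applied here. The 95 spike-in rows held 5.41% of UMIs and were left out of totals, and doublets were not called. Kept gene UMIs were 20719761 to 34053080 per monkey.

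UMIs were summed per monkey and cell type, with at least 5 cells per sum, and tested with edgeR 4.0.16 (R 4.3.3; TMM, filterByExpr, quasi-likelihood F-test, Benjamini-Hochberg adjustment over all genes tested, threshold 0.05). The monkey was a block in the fit over types, since types come from the same animals, and sex was a term in the age fits. Intervals of fold changes are 95% intervals. DESeq2 1.42.0 and other filters, scalings and cell sets were tried as alternatives, and edgeR's use was tested on simulated data. Shares, levels and correlations used exact sign-flip or permutation tests in scipy 1.17.1. Monkeys are the replicates.

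The named genes were the 3 factors, every gene of 5 lists (the Iroquois family, POU class III, α-cell and shared endocrine factors, factors of the other types, α-cell products) and, for each factor, the 5 genes of highest Pearson r with it. The factors and lists were chosen with earlier results of these data known. Values of some listed genes are not reported here.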

Additional observations from a re-analysis of the deposited data

Results flagged for a closer look

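POU3F4 in the α-cells of old male 3 stood at 1.40 CPM, apart from the other old monkeys, the next of which was old male 4 with 0.618 CPM. The gap was 0.558 of the range over 8 monkeys, past the limit of Dixon's test. It was the only one of 16 groups of monkeys tested that did so. For normal values chance gives about 1 in 20, but only 3 of these 8 monkeys had a UMI, so this rate does not apply here. The level rests on 33 UMIs in 5 cells.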

How the results depend on the processing

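Of 366 alternative values for 46 results, leaving aside those without 1 monkey, 343 kept their direction and their side of the threshold. The 46 include fits of POU3F4 and many age, sex and interaction differences without a call, which count as kept if they stay uncalled with the same sign. The count of 343 is therefore no measure of how firm the called differences are. The fits of POU3F4 between types set the α-cells against counts of 0 and are not used as tests; against β-cells they gave 4.03, 0.15 with DESeq2 and 3.87 with a dominant hormone. With at least 20 cells per monkey, PP-cells came from old female 2 alone, and IRX2 was 1.08 higher in them than in β-cells. This is not read as a test. Calls were gained by IRX1 in α-cells against PP-cells with DESeq2 (1.5) and in PP-cells against δ-cells with DESeq2 (1.85), no monkey block (2.02) and no cells rich in non-endocrine markers (2.36).

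Signs turned as follows, always without a call. With DESeq2, POU3F4 was at -3.33 against δ-cells and -3.86 against PP-cells, where it has no UMI. The age difference of IRX2 in β-cells was -0.0042 with DESeq2, -0.16 thinned, -0.29 with a dominant hormone, -0.043 without the deepest cells and -0.0041 with stricter cell limits, and in PP-cells it was 0.18 with at least 3 cells. The sex difference of IRX2 in β-cells was -0.054 without the deepest cells. The IRX1 age effect in α-cells against β-cells was -0.18 thinned and -0.092 with a dominant hormone. The age difference of the β-cell share with IRX2 was 4.15 points unthinned and 1.89 at 20000 UMIs. Between GCG terciles, means over cells gave -0.10 for IRX1 and -0.11 for IRX2, and depth quintiles -0.066 for IRX2. The cause was not tested.

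Leaving out 1 monkey at a time gave 1.43 to 2.27 for IRX1 in α-cells against PP-cells and 0.35 to 0.71 for IRX2 in β-cells against δ-cells (called without young female 3, adjusted p = 0.0418 in edgeR). For age it gave -0.051 to 0.60 for IRX1 and -0.19 to 0.18 for IRX2 in β-cells, -2.09 to 0.51 for IRX2 in PP-cells, -3.49 to 3.23 points for the β-cell share with IRX2 and -0.317 to 0.0485 points for the α-cell share with POU3F4, positive only without young female 3. For sex in β-cells it gave -0.17 to 0.20 for IRX2, and for the interaction -0.18 to 1.33 for IRX1 and -0.15 to 0.57 for IRX2.

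Some counts of called genes were over 1.5 times apart. For α-cells against δ-cells they were 3337 and 1123 with a dominant hormone, and against β-cells 3759 and 6588 with at least 20 cells. For β-cells against δ-cells they were 2639 and 1124 with a dominant hormone. For PP-cells against δ-cells they were 1298 and 2118 with DESeq2, 2269 with no block and 736 thinned. Counts for PP-cells with at least 20 cells are not given, because only old female 2 had that many. Without young male 4, 926 became 543 for α-cells against PP-cells. For age in β-cells 5 became 41 with DESeq2, 21 with no filter and 10 without cells rich in non-endocrine markers, 3 thinned or without the deepest cells and 1 with a dominant hormone; without 1 monkey it ranged from 2 (young male 1 or 2) to 8 (old male 4), with 3 without old male 1, old male 3 or young female 3. For age in PP-cells 0 became 9 with no filter and 4 to 12 without any 1 of the 6 monkeys, and for sex in β-cells 0 became 23 with no filter. The interaction in α-cells went from 1 to 8 with DESeq2.

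Monkey numbers did not pair the samples: the deviations of same-numbered monkeys correlated at a median of 0.03 (-0.09 to 0.18), and of others at -0.01. With the number as a replicate block, the age difference in α-cells was 0.35 for IRX1 and 0.27 for IRX2, and the block changed no call of these factors. Few δ-cells and PP-cells, and few UMIs of POU3F4, limit what could be detected.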
